A study of Homo sapiens with 4 samples.

Results

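The DNAJ proteins, also called J-proteins or HSP40s, are co-chaperones of HSP70, and the mRNAs of 44 of them were followed here in RNA recovered with ORC1 from the nuclei of HCT116, a line of human colorectal carcinoma cells. ORC1 belongs to the origin recognition complex, which marks the sites where DNA replication starts. The members are the protein-coding genes of GENCODE v44 named DNAJA, DNAJB or DNAJC with a number, namely 4 DNAJA, 12 DNAJB and 28 DNAJC genes. All 44 were present among the 63677 genes of the count table. Of these, 39 had enough reads to be tested, and 5 (DNAJB7, DNAJB8, DNAJB13, DNAJC5B and DNAJC5G) did not.

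The cells of all 4 libraries carried a plasmid encoding human ORC1 with a 3xFLAG tag, introduced by transfection 48 h before harvest. In 2 libraries, ORC1-FLAG and the RNA bound to it were precipitated from sonicated nuclear lysate with the anti-FLAG antibody M2 and no crosslinking (IP). In the other 2, RNA was taken from the same kind of lysate without antibody (Input). Each RIP replicate, numbered 1 or 2, gave 1 IP and 1 Input library. Whether the replicates came from separate cultures is not given in the labels, so p-values measure the spread between these libraries only. The precipitated protein came from a transient plasmid rather than from the endogenous gene, and neither a control antibody nor untransfected cells belong to these 4 libraries. RNA held by the beads or the antibody is therefore not separated from RNA held by ORC1-FLAG.

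A J-protein carries a J domain, a short helical fold that makes HSP70 hydrolyse ATP and close on its client protein. DNAJA proteins resemble bacterial DnaJ most closely, DNAJB proteins lack its zinc-binding region, and DNAJC proteins share only the J domain and are otherwise unlike each other. Members work in the cytosol, the nucleus, the endoplasmic reticulum, mitochondria and on vesicles. What is followed here is their mRNA and not the proteins.

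Libraries held 9213877 to 27483148 counts, more in IP (27483148 and 20280445) than in Input (14677002 and 9213877). Among the markers of the line, KRT8, KRT18, EPCAM, CDH1 and CDX2 were measured in all libraries, while VIL1 had at most 5 counts and so was absent as a marker. Of the markers of other cell types, CD3E and PECAM1 had no count, and PTPRC, HBB and ALB had at most 4 counts in a library. The fibroblast gene COL1A1 was at 7.9 and 10.8 CPM (counts scaled to the library total times its TMM factor, a trimmed mean of log ratios between libraries) in Input and was called enriched in the IP (log2 fold change 1.38). Whether it bears on any DNAJ value was not tested.

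Because the study paid attention to RNAs with repeats of the triplet GAA in this same experiment, the coding sequences of the members were searched for them, on the sense strand only. The study looked for enriched motifs in whole transcripts, whereas an exact run within the coding sequence was counted here. The shares below are therefore not comparable with the study's. A run of GAAGAAGAA occurred in 6 of the 39 tested members (15.4%), against 12.5% of all 12534 protein-coding genes tested and 36.9% of the enriched ones. The 30-base windows around that run are printed below in the sense of the mRNA, 5′ to 3′, with the GAA repeats in capitals, because they belong both to the most enriched members and to members near or below 0. They come from the GRCh38 genome, all within a coding exon. The window of DNAJC21 lies at chr5:34944926-34944955 (plus strand), of DNAJC2 at chr7:103323605-103323634 (minus strand), of DNAJC3 at chr13:95787072-95787101 (plus strand), of DNAJB6 at chr7:157416056-157416085 (plus strand), of DNAJC14 at chr12:55828349-55828378 (minus strand) and of DNAJC28 at chr21:33489022-33489051 (minus strand).
DNAJC21: agctggaggagGAAGAAGAAaatttttcaa
DNAJC2: cttatttagatGAAGAAGAAaaagaaaaag
DNAJC3: acttccagaatGAAGAAGAAaagaaaaaag
DNAJB6: agaggagtcGAAGAAGAAGAAgtcgaccaa
DNAJC14: agacgtcttcaGAAGAAGAAtcaggagtgg
DNAJC28: agtaaaggtGAAGAAGAAGAAgatgtagaa

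In DNAJB6 the capitals do not follow the codon frame, and in the other windows they do, where each GAA encodes glutamate. In the order printed, the log2 fold changes of IP over Input were 2.02, 2.01, 0.67, 0.05, -0.07 and -0.35. The longest repeats, in DNAJB6 and DNAJC28, thus stood in mRNAs that were not called. DNAJC28 had at most 22 reads in a library, which limits whether it could be called.

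Differences between IP and Input were tested for all 14645 genes with enough reads by the quasi-likelihood test of edgeR, with Benjamini-Hochberg adjustment. To be called enriched or depleted, a gene needed an adjusted p under 0.05 together with a log2 fold change of more than 1 in either direction. Of the members, 8 rose in the IP (DNAJC21, DNAJC2, DNAJC1, DNAJC13, DNAJC17, DNAJC25, DNAJC11 and DNAJC18), 1 fell (DNAJB9), and 30 were not called. The 8 are 20.5% of the tested members, beside 10.5% of all genes tested and 11.9% of protein-coding genes. For depletion, the 1 member is 2.56%, beside 8.3% of all genes. No DNAJA gene was called by this edgeR fit, DESeq2 or limma voom or had an unadjusted p below 0.05 in this fit. With libraries scaled by their totals alone, DNAJA2 was called depleted (log2 fold change -1.02, edgeR adjusted p = 0.0211). The 8 enriched members were all among the 26 tested DNAJC genes. In both replicates the ratio of IP to Input exceeded a log2 value of 1 in 6 members, beside 8.95% of all genes.

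Across the 39 members the median log2 fold change was 0.14, beside 0.01 for all genes tested and 0.08 for protein-coding genes. The direction of this median depended on scaling: it was -0.47 (all genes -0.59) when libraries were scaled by their totals alone and -0.03 (all genes -0.16) with upper-quartile scaling. IP values lay above Input values in all libraries for 16 members (beside 33.2% of all genes) and below them for 4 (beside 31.9%), and the groups overlapped for 19. A fit with the RIP replicate as a block called 10 members enriched and 2 depleted, each beside a background of 13.4%. It added DNAJC8 and DNAJC7 (edgeR adjusted p with the block = 7.82e-06 and 3.83e-05) and, on the depleted side, DNAJC30 (0.000761).

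**Figure D1:**
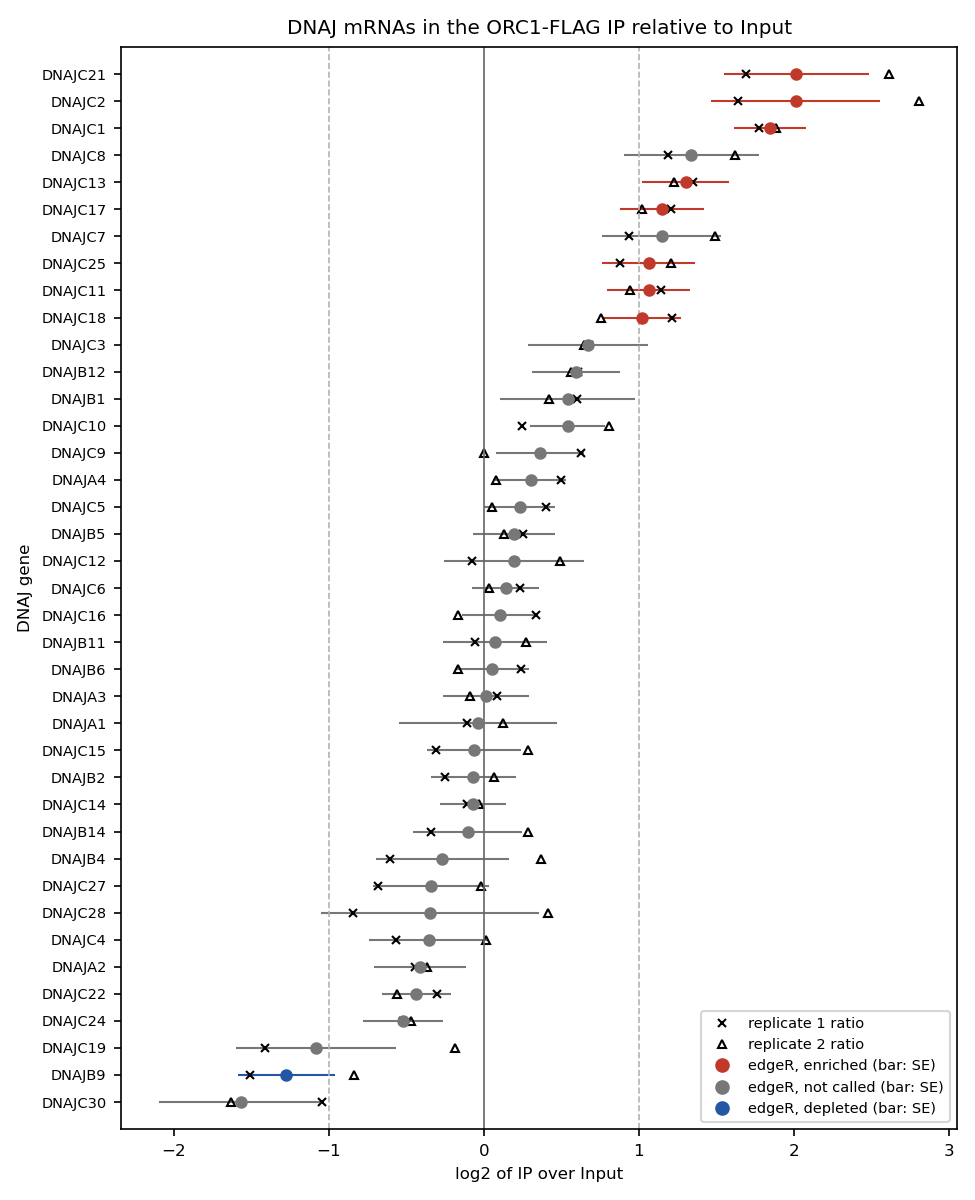
Log2 of IP over Input for the 39 tested DNAJ genes, sorted by the edgeR log2 fold change (circles, bars are its standard error), with the ratio of each RIP replicate from scaled CPM (crosses, replicate 1, and open triangles, replicate 2). Dashed lines mark log2 values of -1 and 1. DNAJC21 and DNAJC2 lead at 2.02 and 2.01 with replicate ratios far apart, DNAJC1 has nearly equal ratios, and DNAJC30 and DNAJB9 lie lowest.

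The members of the nucleus, the ribosome and splicing stood highest as a list. The lists were chosen with earlier results of these data known, so this rank is not independent evidence. All 5 of these members had both IP libraries above both Input libraries, beside 33.2% of all genes. Of the 5, 3 were enriched, beside 10.5% of all genes, and their median log2 fold change was 1.34. DNAJC21 is needed for the maturation of the large ribosomal subunit in the cytoplasm. Its level was 160.2 CPM in replicate 1 and 114 CPM in replicate 2 of the IP, against 49.2 and 18.1 CPM in the matching Input libraries, and the same order of replicates is kept from here on. Both IP values exceeded both Input values, and Input replicate 2 was the lowest by a wide margin. The log2 fold change was 2.02 ± 0.47 (SE, 2 libraries a group, edgeR adjusted p = 0.0257).

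DNAJC2 (also MPP11 or zuotin) is the J-protein of the ribosome-associated complex, in which it pairs with HSPA14 at the exit of the nascent chain. It was at 137 and 91.1 CPM in the IP and at 43.6 and 12.6 CPM in Input. Here again Input replicate 2 was low, by a factor of 3.46 relative to Input replicate 1, against a factor of 1.5 between the IP libraries. The log2 fold change was 2.01 ± 0.55 (edgeR adjusted p = 0.0396), and the log2 ratios of the replicates were 1.64 and 2.81. Without Input replicate 2, the fold changes were 1.34 for DNAJC21 and 1.25 for DNAJC2, and both calls remained. Without IP replicate 1, both calls were lost (edgeR adjusted p = 0.0893 and 0.152). The mRNA of the partner HSPA14 had a log2 fold change of -0.21 ± 0.26 and was not called.

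DNAJC17, a nuclear protein linked to pre-mRNA splicing, was at 42.2 and 29.4 CPM in the IP and 18 and 14.2 CPM in Input. Its values did not overlap between groups, with a log2 fold change of 1.15 ± 0.27 (edgeR adjusted p = 0.0271). DNAJC8, a component of purified spliceosomes, had 344 and 208 CPM in the IP and 151 and 67.3 CPM in Input, a log2 fold change of 1.34 ± 0.43. Although larger than that of 5 enriched members, this difference missed the threshold (edgeR adjusted p = 0.0655) and was called in 4 of 12 alternative fits (with the replicate block, with DESeq2, with no count filter and without Input replicate 1). DNAJC9, a chaperone of histone H3, had a log2 fold change of 0.36 ± 0.28 and its groups were barely apart, with 11.8 CPM in both IP and Input of replicate 2.

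**Figure D2:**
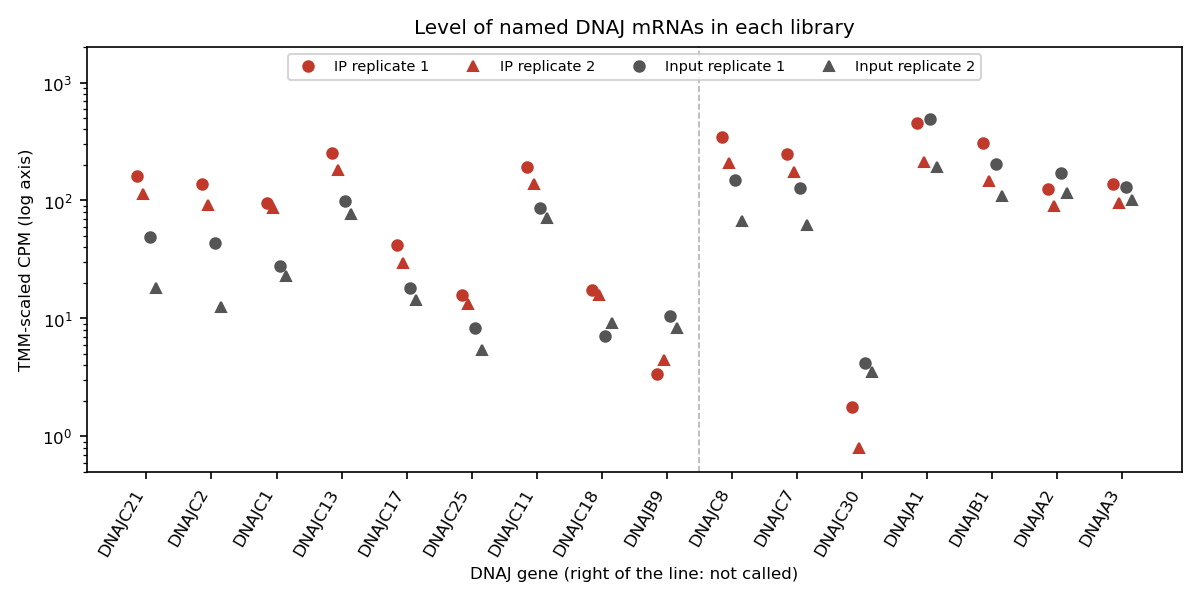
TMM-scaled CPM on a log axis in each of the 4 libraries, for the 9 called DNAJ genes (left of the dashed line) and 7 that were not called. Red symbols are IP, grey symbols Input, circles replicate 1 and triangles replicate 2. The grey triangles of DNAJC21 (18.1 CPM) and DNAJC2 (12.6 CPM) lie well under their grey circles, whereas the 2 Input values of DNAJC1 lie close together.

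Of the 11 members of the endoplasmic reticulum (ER), 3 were enriched (beside 10.5% of all genes), 1 was depleted (beside 8.3%) and 7 were not called. Their median log2 fold change was 0.54. That median was 0.32 when DNAJC14, also an ER protein but not in the list, was counted as well, a choice made after seeing the data. DNAJC1 is a membrane protein of the ER whose J domain faces the lumen, where it meets the HSP70 of that compartment, BiP (HSPA5). It was at 95.8 and 86.5 CPM in the IP against 27.6 and 23 CPM in Input. The replicates lay close together in both groups and far apart between them, and the log2 fold change was 1.85 ± 0.23 (edgeR adjusted p = 0.0105). DNAJC1 had the smallest adjusted p of the members and was the only one called in all 12 alternative fits.

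DNAJC25, another membrane-anchored J-protein, was lower in level, with 15.8 and 13.1 CPM in the IP and 8.36 and 5.39 CPM in Input. Its groups did not overlap, and its log2 fold change was 1.06 ± 0.30 (edgeR adjusted p = 0.0436). DNAJC18, an ER membrane protein, was at 17.3 and 15.9 CPM in the IP and 7.16 and 9.24 CPM in Input. All IP values were again above all Input values, with a log2 fold change of 1.02 ± 0.25 (edgeR adjusted p = 0.0303), and its replicate 2 ratio of 0.75 was under 1. These were the least stable calls: they were kept in 5 and 6 of the 12 alternative fits, and both were lost when either IP library was left out.

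DNAJB9 (ERdj4), a partner of BiP in the ER and a repressor of the stress sensor IRE1, was the depleted member. It had 70 and 78 reads in the IP (3.36 and 4.44 CPM) and 183 and 97 reads in Input (10.5 and 8.3 CPM). IP values were below Input values in all libraries, with a log2 fold change of -1.27 ± 0.31 (edgeR adjusted p = 0.0293). The call was lost on leaving out either IP library or Input replicate 1, with fold changes of -1.08, -1.48 and -1.12.

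DNAJB9 is induced by the unfolded protein response, as are DNAJB11, DNAJC3 and DNAJC10, and of these 4 it was the only one called. DNAJC3 (P58IPK), an inhibitor of the kinase PERK, had a log2 fold change of 0.67 ± 0.39, DNAJC10 (ERdj5), a disulfide reductase, 0.54 ± 0.24, and DNAJB11 (ERdj3), a soluble BiP co-chaperone, 0.07 ± 0.34. Levels in Input overlapped with those in the IP for DNAJC3 and DNAJB11 but not for DNAJC10. The remaining ER members were DNAJB12 and DNAJB14, which act in the degradation of ER membrane proteins, with log2 fold changes of 0.59 and -0.10, and DNAJC16 and DNAJC22 with 0.10 and -0.43.

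Among the 7 mitochondrial members the median log2 fold change was -0.35, and 1 was enriched (beside 10.5% of all genes). That was DNAJC11, a protein of the outer membrane tied to the complexes that shape the cristae. It was at 192 and 138 CPM in the IP and 86.7 and 71.4 CPM in Input, with no overlap and a log2 fold change of 1.06 ± 0.27 (edgeR adjusted p = 0.0321). DNAJA3 (TID1), the matrix J-protein that works with mortalin (HSPA9), was the member nearest 0.

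Values of DNAJA3 were 139 and 95.8 CPM in the IP and 131 and 102 CPM in Input. The groups overlapped, and the log2 fold change was 0.01 ± 0.28 (edgeR adjusted p = 0.978).

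DNAJC30, which acts on respiratory complex I, had the lowest fold change of all members on few reads. It had 37 and 14 reads in the IP and 73 and 41 in Input, and a log2 fold change of -1.57 ± 0.53 (edgeR adjusted p = 0.0722). Its IP values were all below its Input values, and it was called depleted in 4 of 12 alternative fits (with the replicate block, with library totals as the only scaling, with no count filter and without Input replicate 2). DNAJC19 and DNAJC15, the J-proteins of the import motor of the inner membrane, had log2 fold changes of -1.08 ± 0.51 and -0.06 ± 0.30. For DNAJC19, Input replicate 1 alone was high, at 10.1 CPM against 3.42 CPM in Input replicate 2 and 3.51 and 2.96 CPM in the IP. DNAJC4 and DNAJC28 were at -0.35 and -0.35.

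Of the 6 members of vesicles and endosomes, 4 were tested and 1 was enriched (beside 10.5% of all genes). DNAJC13 (RME-8) recruits HSC70 to endosomes and has the longest coding sequence of all members, 6729 bases over 56 exons. It was at 254 and 182 CPM in the IP and 99.4 and 77.1 CPM in Input. Groups did not overlap, and the log2 fold change was 1.30 ± 0.28 (edgeR adjusted p = 0.0211). DNAJC5 (cysteine string protein of synaptic vesicles), DNAJC6 (auxilin, which uncoats clathrin vesicles) and DNAJC27 had log2 fold changes of 0.23, 0.14 and -0.34. GAK, a ubiquitous relative of auxilin outside the DNAJ names, was enriched at 1.01 ± 0.23 (edgeR adjusted p = 0.0238). Whether DNAJC6 and GAK differ from each other was not tested.

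None of the 9 cytosolic co-chaperones of HSP70 was called by the reported edgeR fit, and their median log2 fold change was 0.05. At an unadjusted p below 0.05 there was 1 (DNAJC7), which DESeq2 also called and limma voom did not. They include the members with the highest mean Input CPM, namely DNAJA1 (340), DNAJB1 (156) and DNAJA2 (143). Levels were also divided by the length of all annotated exons of the gene. Per kilobase of exon, the mean Input level was 128 CPM for DNAJA1, the main cytosolic J-protein of its class. It was followed by 37.7 for DNAJC8, 28.8 for DNAJA2, 19.3 for DNAJC5 and 19.1 for DNAJB1. In that order, DNAJA1 and DNAJC8 did not overlap over the Input libraries, and neither did DNAJA2 (34.4 and 23.2) and DNAJC5 (18.4 and 20.1), whereas DNAJC8 and DNAJA2, and DNAJC5 and DNAJB1, did. DNAJA1 was at 182 and 72.7 and DNAJC8 at 52.1 and 23.3 CPM per kilobase. The order per kilobase depends on the length chosen. Exon length was 8188 bases for DNAJB1, 9385 for DNAJB11 and 2892 for DNAJC8. Their canonical transcripts have 2242, 1640 and 1763 bases. Per kilobase of canonical transcript the order does not hold throughout. DNAJB1 had a higher mean Input CPM (156) on a shorter transcript than DNAJA2 (143 CPM, 3008 bases) and DNAJC5 (120 CPM, 5249 bases). By that length DNAJB1 would stand above both. The other places were not worked out. A CPM is a share of a bulk library, in which fewer cells with a transcript and less transcript per cell cannot be told apart.

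DNAJA1 was at 453 and 212 CPM in the IP and 487 and 194 CPM in Input. Replicate 1 exceeded replicate 2 by a factor of 2.14 in the IP and 2.51 in Input, the groups overlapped, and the log2 fold change was -0.04 ± 0.51 (edgeR adjusted p = 0.968). DNAJB1, the heat-inducible HSP40, was at 309 and 146 CPM in the IP and 204 and 109 CPM in Input, with overlapping groups and a log2 fold change of 0.54 ± 0.44 (edgeR adjusted p = 0.403). Within each replicate its IP value was the higher. DNAJA2, which assists HSC70 in refolding, went the other way, with 125 and 89 CPM in the IP and 170.2 and 115 CPM in Input and a log2 fold change of -0.41 ± 0.30 (edgeR adjusted p = 0.346).

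DNAJC7, which passes clients between HSP70 and HSP90 through its tetratricopeptide repeats, was the highest of the cytosolic list in log2 fold change at 1.15 ± 0.38 (edgeR adjusted p = 0.0715). Its IP values of 246 and 175 CPM were above its Input values of 128 and 61.7 CPM. The other 5 ranged from -0.27 in DNAJB4 to 0.30 in DNAJA4 and include DNAJB6 (0.05), a suppressor of polyglutamine aggregation, DNAJB2 (-0.07) and DNAJB5 (0.19).

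Outside these lists were DNAJC12, a partner of the aromatic amino acid hydroxylases, at 0.19, DNAJC14, an ER protein known from receptor transport, at -0.07, and DNAJC24, an enzyme of diphthamide synthesis on elongation factor 2, at -0.52. None was called by the reported edgeR fit, DESeq2 or limma voom or had an unadjusted p below 0.05 in the reported fit. Of the 3 only DNAJC24 had both IP values below both Input values, and it was called depleted with library totals alone. The 5 members too low to test form the list of testis and cilium genes. DNAJB8 had no read in any library, and the highest count among the other 4 was 19 reads, for DNAJC5G in IP replicate 2.

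Genes that work with the J-proteins were looked at as lists as well. Of 15 tested HSP70 and HSP110 genes, 6 were enriched, none was depleted (0 at an unadjusted p below 0.05 in that direction, 0 by DESeq2 and 0 by limma voom), and the median log2 fold change was 1.18. HSPA8 (HSC70, the constitutive cytosolic HSP70) rose by 1.86 ± 0.52 on the log2 scale, BiP (HSPA5) by 1.68 ± 0.30, mortalin (HSPA9) by 1.55 ± 0.31, and HSPA2, HSPH1 and HYOU1 by 1.53, 1.78 and 1.03 (edgeR adjusted p from 0.0141 to 0.0425 for the 6). HSPA8 held 18326 and 7746 CPM in the IP and 4590 and 2578 CPM in Input. The near-identical copies HSPA1A and HSPA1B, between which reads may be split, had log2 fold changes of 1.64 and 1.51 and were not called by edgeR without the replicate block. Both were enriched with that block and with DESeq2, each of which called 9 of the 15 genes.

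None of 10 genes listed as nucleotide exchange factors, which release ADP from HSP70, was enriched by edgeR. At an unadjusted p below 0.05 there were 3 in that direction, with 1 called by DESeq2 and 0 by limma voom. HSP110 genes were counted not in this list but in the previous one, where HSPH1 and HYOU1 were enriched (1.78 and 1.03). The absence of enriched genes thus holds only for the 10 listed. BAG3 (0.995 ± 0.24, edgeR adjusted p = 0.029) passed the adjusted p and narrowly missed the minimum fold. GRPEL2, of mitochondria, fell (-1.24 ± 0.25, edgeR adjusted p = 0.019). Of 4 other cytosolic cofactors, STIP1 (HOP, the adaptor between HSP70 and HSP90) rose by 2.43 ± 0.38 on the log2 scale (edgeR adjusted p = 0.0117). Of J-domain genes outside the DNAJ names, GAK was enriched, as given above, while SEC63, of the ER translocon, was at a log2 fold change of 0.01 and HSCB, of iron-sulfur cluster assembly, at 0.25, neither of them called. The counts of enriched genes in these lists stand beside the same 10.5% of all genes.

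Coding length moved with the fold change in the members, as it did in all genes. Spearman's rank correlation between the log2 fold change and the coding length was 0.47 over the 39 members and 0.59 over 12534 protein-coding genes, both given as descriptions over genes that share the same 4 libraries. It was 0.48 and 0.38 over the members for the ratios of replicates 1 and 2, and 0.43 without DNAJC13. The number of exons gave 0.56 over members and 0.53 over all, and the length of the 3′ UTR -0.09 and -0.08. The 20 members with up to 1080 coding bases, the median, had a median log2 fold change of -0.01, with 3 enriched and 1 depleted, and the 19 longer ones 0.30, with 5 enriched.

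Each member was then set beside the protein-coding genes in its own decile of coding length. In this comparison 28 members lay above the median of their decile and 11 below it, by 0.29 in the median. DNAJC21, DNAJC1, DNAJC2 and DNAJC8 were higher than 99.8%, 99.4%, 99.3% and 98.2% of the genes in theirs. DNAJC13, by contrast, was higher than 64.8%, in a decile whose median was 1.07. DNAJB9 and DNAJC30, both short, were higher than 14.1% and 7.34% of genes of like length, and DNAJC6 and DNAJC14, both long, than 20.8% and 20.1%.

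**Figure D3:**
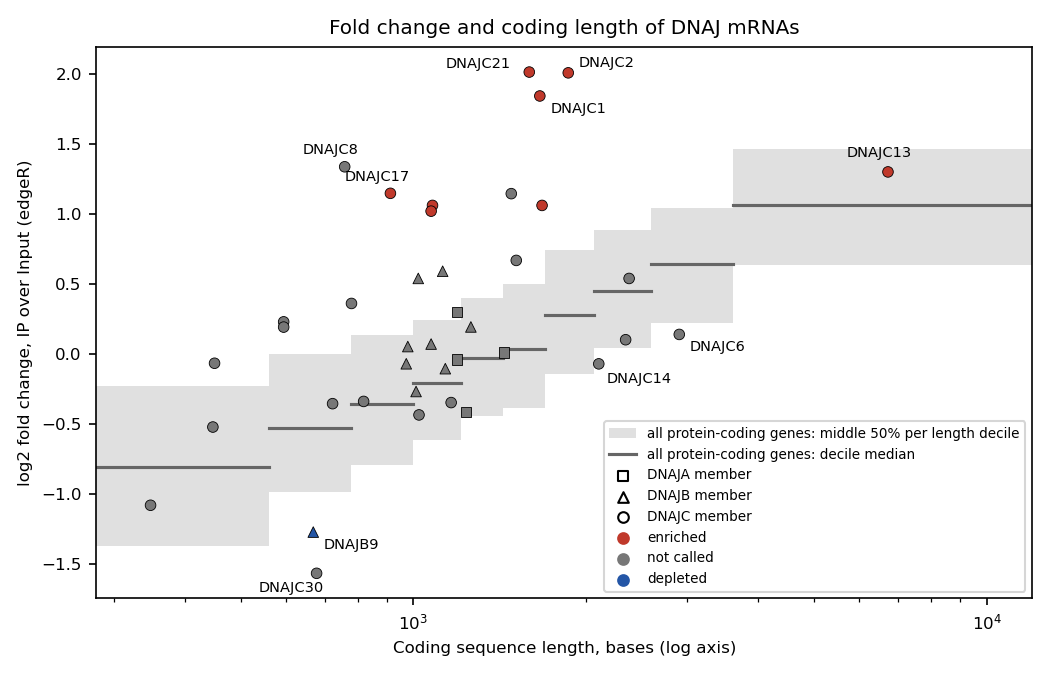
Log2 fold change of IP over Input (edgeR) against coding length in bases on a log axis, for the 39 tested DNAJ genes (squares DNAJA, triangles DNAJB, circles DNAJC, red enriched, grey not called, blue depleted). Grey boxes span the middle 50% of all protein-coding genes in each decile of coding length and dark lines their medians. DNAJC21, DNAJC2, DNAJC1 and DNAJC8 lie far above the boxes of their lengths and DNAJC13 lies within its box.

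Shorter runs, of 2 or more GAA in tandem, were present in the coding sequence of all 8 enriched members and of 21 of the other 31 tested ones. They were also present in 70.5% of protein-coding genes tested and in 95.8% of the enriched ones. DNAJB9, DNAJC30 and DNAJC19, at the low end, had none, and neither did 7 others, of which DNAJC10 was the highest in fold change (0.54). Per kilobase of coding sequence, DNAJC21 had the most runs of the tested members (9 runs, 5.65 per kilobase), a density met or exceeded by 1.48% of protein-coding genes. DNAJC8 (5.27), DNAJC24 (4.47) and DNAJC2 (4.29) came next, of which DNAJC24 had a fold change below 0. DNAJC1, next to DNAJC21 and DNAJC2 in fold change, had 1.2 runs per kilobase, the median of the members. The rank correlation between density and fold change was 0.37 over the 39 members and 0.29 over all protein-coding genes, and for runs of TTC, the reverse complement, -0.01 and 0.06. The run TTCTTCTTC was in no member's transcript, against 5.02% of all. A run of letters is not a binding site, and longer coding sequences hold more of them.

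Some members share transcribed bases with a neighbour, and the counting is not stated to use strand. Among the tested members, genes on the opposite strand covered 56.5% of the exonic bases of DNAJC9, 34.9% of DNAJC14, 27.9% of DNAJC17, 21.1% of DNAJC2 and 11.6% of DNAJC11. For the enriched ones among these, the neighbours of DNAJC17 were GCHFR (log2 fold change -0.18), C15orf62 (-0.07) and ZFYVE19 (0.89, edgeR adjusted p = 0.0336). Tested neighbours of the others were PMPCB (0.47) beside DNAJC2 and THAP3 (-0.42) beside DNAJC11. ZFYVE19 passed the adjusted p and missed the minimum fold, so it was higher in the IP together with DNAJC17. GCHFR and C15orf62, with at most 15 and 16 reads in a library, did not pass the adjusted p, and neither did PMPCB and THAP3. How reads were split between the strands was not tested. On the same strand, other genes covered at most 23.2% of a tested member's exonic bases (DNAJC14). Of the enriched members, DNAJC25 (13.7%) and DNAJC18 (3.88%) shared bases this way. Which gene such reads were given to was not tested. Pseudogenes named after 8 members held at most 1.02% of the member's own count, except 25% for DNAJC19 and 5.91% for DNAJB6, so these fold changes are less certain.

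The calls depended on single libraries and on the scaling. Without IP replicate 1, only DNAJC1 remained called (1 enriched and 0 depleted, beside 3.26% and 2.08% of all genes). Without IP replicate 2, 5 members were enriched, without Input replicate 1 there were 11 and without Input replicate 2 there were 4, beside 7.48%, 11.9% and 9.92% of all genes. The depleted members numbered 0, 0 and 3 in these fits, beside 3.27%, 9.44% and 11.9%. The calls of DNAJC2, DNAJC25, DNAJC18 and DNAJB9 were lost without IP replicate 2, those of DNAJC13, DNAJC17, DNAJC25 and DNAJC11 without Input replicate 2, and those of DNAJC18 and DNAJB9 without Input replicate 1. In these fits a lone library is assumed to vary like the pair of the other group. Scaled by library totals alone, 2 members were enriched (DNAJC21 and DNAJC1) and 5 depleted (DNAJA2, DNAJC22, DNAJC24, DNAJB9 and DNAJC30). These counts stood beside 2.59% and 22.2% of all genes, the median of all genes having moved by -0.60. Upper-quartile scaling gave 4 enriched and 1 depleted, beside 7.37% and 10.5%, and RLE scaling 6 and 1, beside 9.75% and 8.62%. With no count filter, which let 43 members in, 9 were enriched and 3 depleted, beside 4.94% and 5.05%, and requiring at least 1 CPM in 2 libraries gave 7 and 1, beside 11% and 9.58%. DESeq2 called 9 enriched and 1 depleted, beside 11% and 7.66%, and limma voom 8 and 1, beside 10.5% and 7.74%. By the adjusted p alone, with no minimum fold, edgeR called 8 higher and 1 lower, beside 13% and 9.96%. DNAJC21 was kept in 11 of the 12 alternative fits, DNAJC13 and DNAJB9 in 9, DNAJC2 and DNAJC17 in 8 and DNAJC11 in 7.

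**Figure D4:**
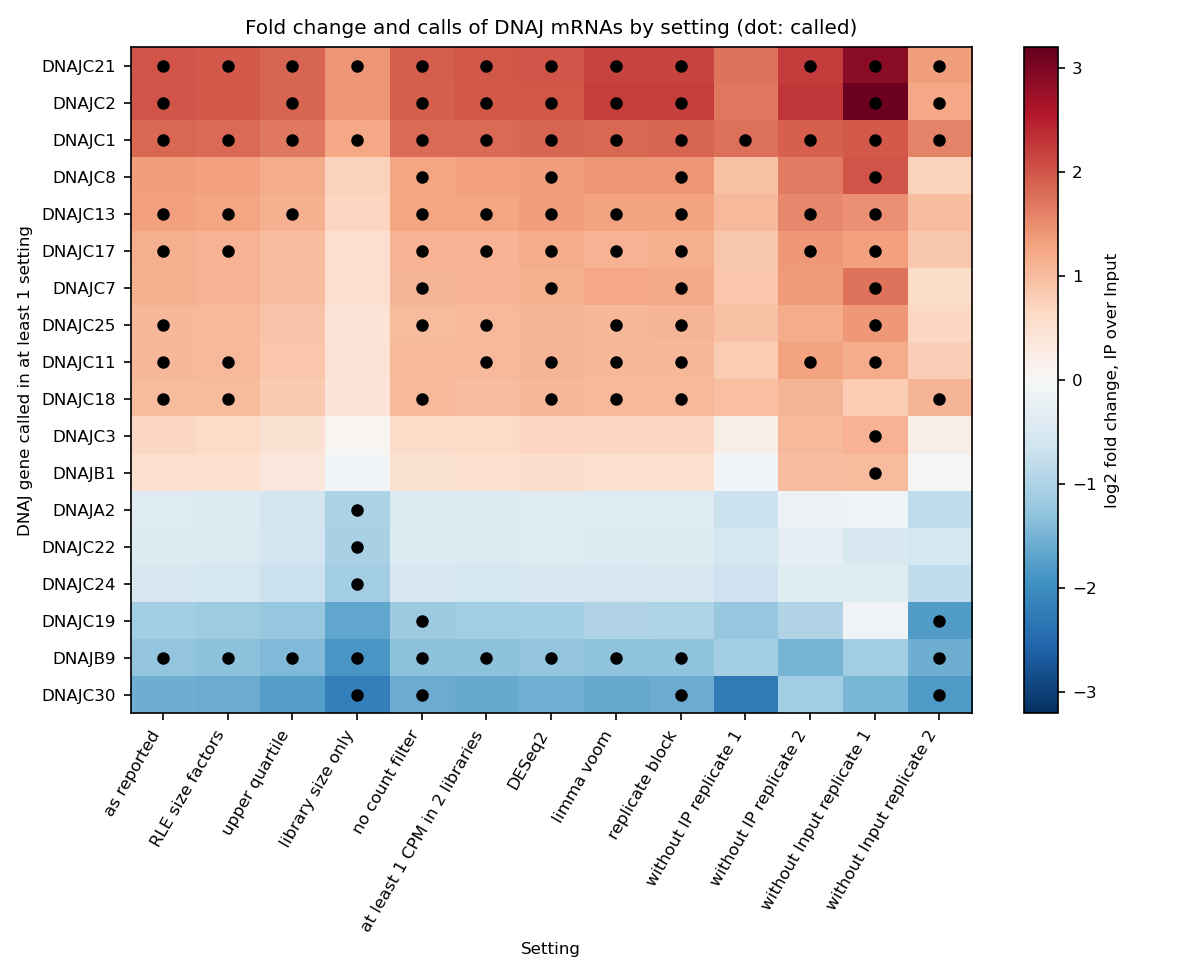
Log2 fold change (colour) and calls (black dots) of the 18 DNAJ genes called in at least 1 setting, as reported and in 12 alternative fits. The row of DNAJC1 has a dot in every column, the column without IP replicate 1 has a dot for DNAJC1 alone, and the column scaled by library size only has 5 dots among the blue rows.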

How the data were processed

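RNA immunoprecipitation and sequencing (RIP-seq) gave 4 libraries, 2 of ORC1-FLAG IP and 2 of Input, with strand-marking total RNA kits. The values deposited are unnormalized counts of reads for each gene. The authors trimmed reads with Trimmomatic, aligned them with STAR to hg19, removed reads on unplaced contigs and counted per gene with featureCounts and an Ensembl annotation. The annotation release, the strand setting and the handling of reads with several alignments are not given in the sources used here.

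Groups came from the labels. Counts were fitted over all genes with edgeR 4.0.16 (R 4.3.3; quasi-likelihood test with robust dispersions, TMM, filterByExpr, group as the only term). SE is the fold change divided by the square root of F. Replicate ratios used scaled CPM with a pseudocount of 0.5. TMM factors were 0.758 and 0.868 in the IP and 1.19 and 1.28 in Input. The common biological coefficient of variation was 0.261. Reads carry no molecular identifiers, so copies of 1 molecule count separately. Alternatives were DESeq2 1.42.0, limma voom (limma 3.58.1), 3 other scalings, 2 other count filters, a replicate block and leaving out each library. The scripts were tested on simulated data. Input and IP of a number belong to the same RIP in the labels. Deviations of same-numbered libraries from the group means correlated over 14645 genes (Pearson r = 0.645), so the numbers were taken as pairs. The reported fit did not use the pairing, since the study's methods state no such term. Its SE therefore includes any difference that IP and Input of a replicate share. The pairing entered as the replicate block among the alternatives.

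Names, lengths and sequences of genes were taken from GENCODE v44 (GRCh38) and joined by Ensembl identifier to counts made on hg19. Of the 63677 genes, 11496 had no identifier there, and of the 14645 tested 380. All 44 members had one. Coding length is that of the canonical transcript, without the stop codon. The members and the lists of roles were chosen with earlier results of these data known. A gene of the lists is not reported here. Values are given in every library for each called member, for the 3 tested members not called with the highest Input CPM, and for the tested member nearest 0; others are named by their fold change, and DNAJC7, DNAJC8, DNAJC19 and DNAJC30 were given in full after their values were seen.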

Additional observations from a re-analysis of the deposited data

How the results depend on the processing

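The 8 enriched and 1 depleted members became 2 and 5 when libraries were scaled by their totals alone, and 4 members were enriched with upper-quartile scaling. With no count filter 3 members were depleted, and with the replicate block 2. Leaving out 1 library at a time gave 1 to 11 enriched and 0 to 3 depleted members. Without IP replicate 1 there was 1 enriched member, without IP replicate 2 5, without Input replicate 2 4 and without Input replicate 1 11. The depleted members were 3 without Input replicate 2 and 0 without each of the others. Fewer libraries were fitted in each of these cases, and the cause of the other changes was not tested. The replicate block changed no other call than those of DNAJC8, DNAJC7 and DNAJC30. The RLE scaling, requiring 1 CPM in at least 2 libraries, DESeq2, limma voom and the adjusted p without a minimum fold kept both counts within 1.5 times.

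The median log2 fold change of 0.14 was 0.12 with RLE, -0.47 with library totals alone, -0.033 with upper-quartile scaling and 0.17 with DESeq2 (43 members), and -0.0076 to 0.35 with 1 library left out. By class it was -0.011 in DNAJA, 0.055 in DNAJB and 0.30 in DNAJC. That of the 11 members of the endoplasmic reticulum, 0.54, was 0.32 with DNAJC14 added, an alternative chosen after seeing the data. The median ratio of replicate 2 was 0.27, and 0.20 with a pseudocount of 2 CPM. Spearman's rank correlation of fold change with coding length was 0.38 to 0.50 with 1 library left out, and 0.28 with exonic in place of coding length.

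No called member changed sign in any fit, whereas fold changes of members near 0 did. With library totals alone the sign turned in DNAJB12 (-0.017), DNAJB1 (-0.079), DNAJC10 (-0.043), DNAJC9 (-0.26), DNAJA4 (-0.31), DNAJC5 (-0.38), DNAJB5 (-0.40), DNAJC12 (-0.40), DNAJC6 (-0.47), DNAJC16 (-0.51), DNAJB11 (-0.53), DNAJB6 (-0.56) and DNAJA3 (-0.60). With upper-quartile scaling it turned in DNAJC6 (-0.033), DNAJC16 (-0.079), DNAJB11 (-0.090), DNAJB6 (-0.13) and DNAJA3 (-0.16). DNAJA3 was at -0.016 with RLE and with no count filter and at -0.019 with the CPM filter, and DNAJA1 at 0.021 with limma voom and 0.0095 with the replicate block. With 1 library left out, the ranges that crossed 0 were those of DNAJA1 (-0.70 to 0.74), DNAJA3 (-0.29 to 0.26), DNAJB1 (-0.10 to 1.02), DNAJB11 (-0.42 to 0.51), DNAJB14 (-0.65 to 0.45), DNAJB2 (-0.39 to 0.20), DNAJB4 (-0.93 to 0.56), DNAJB5 (-0.026 to 0.33), DNAJB6 (-0.18 to 0.26), DNAJC12 (-0.26 to 0.61), DNAJC14 (-0.16 to 0.0058), DNAJC15 (-0.53 to 0.35), DNAJC16 (-0.14 to 0.31), DNAJC27 (-0.80 to 0.016) and DNAJC28 (-1.03 to 0.15). Depth limits the members with few reads: DNAJC30 and DNAJC28 had at most 73 and 22 reads in a library.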
